A study of Mus musculus with 6 samples.

Results

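Interferon-stimulated genes, 9 in number, were followed in ribosome-bound RNA from mouse corpus callosum, the white matter tract between the hemispheres. They are Irf7, Irf9, Ifit1, Ifit3, Bst2, Isg15, Usp18, Oasl2 and Ifitm3, chosen by name as interferon signalling factors and induced effectors, and all 9 were found among the 39017 genes of the count table. All 9 also passed the filter on low counts, which left 16569 genes. Every library came from C57BL/6 mice that carry RiboTag and Olig1-Cre, so that RPL22, a protein of the ribosome, gains an HA tag wherever the Olig1 promoter has driven Cre, and RNA was pulled down with a monoclonal anti-HA antibody. The labels call the cells oligodendrocytes, and Olig1 also drives Cre in their progenitors, so the tag need not be limited to mature cells. The 3 control libraries (replicates 24, 26 and 27) carry the treatment label Control and the title Vehicle, and the 3 cuprizone libraries (replicates 30, 31 and 32) come from mice given chow with 0.2% cuprizone, a copper chelator that damages oligodendrocytes and strips myelin. The shared protocol names young females of 8 to 10 weeks, cuprizone for 6 or 9 weeks and 3 weeks of recovery, without saying which applies to the cuprizone libraries. Nothing in the labels says that the libraries of a group came from separate animals, so the p-values measure the spread between these samples, which may be technical.

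Interferons are secreted signals, best known from the defence against viruses. Type I interferons bind a receptor made of IFNAR1 and IFNAR2, whose kinases JAK1 and TYK2 activate STAT factors, STAT2 among them, and these join IRF9 to form a complex that binds the interferon-stimulated response element in the promoters of its targets. Irf7 encodes a factor that amplifies interferon production, Isg15 a ubiquitin-like protein joined to other proteins, and Usp18 the protease that removes ISG15 and also damps the receptor. In white matter, microglia, astrocytes and oligodendrocytes are all able to respond to interferon.

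The promoters of several of the 9 genes hold the letters of that response element, and the stretches that carry them are shown because the genes are known for sharing this switch. The motif searched was GAAANNGAAA on either strand (TTTCNNTTTC when read from the other one), in windows of 300 bases, 250 before and 50 after each start site in RefSeq annotation (GRCm38.p6). Windows were found for 8 of the 9 genes. The exact motif was present in those of 5, against 3.99% of all 27025 genes with a window and 3.44% of all 32851 windows, and in 22 of 44 other interferon-stimulated genes. Sequences below run 5′ to 3′ on the strand of the gene, with the motif matches in capitals, where overlapping matches merge into one run. They lie at chr19:34640755-34640843 (Ifit1, plus strand), chr19:34583343-34583446 (Ifit3, plus strand), chr8:71537557-71537632 (Bst2, minus strand) and chr4:156200845-156200926 (Isg15, minus strand).
Ifit1: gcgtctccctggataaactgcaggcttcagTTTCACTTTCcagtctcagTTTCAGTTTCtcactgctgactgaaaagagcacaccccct
Ifit3: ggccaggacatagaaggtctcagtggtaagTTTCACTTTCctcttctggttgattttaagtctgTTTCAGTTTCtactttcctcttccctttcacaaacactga
Bst2: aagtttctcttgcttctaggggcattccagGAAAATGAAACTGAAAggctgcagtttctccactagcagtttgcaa
Isg15: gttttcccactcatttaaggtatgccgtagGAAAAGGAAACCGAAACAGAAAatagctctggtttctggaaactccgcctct

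Ifit1 and Ifit3 each held 2 separate matches on the opposite strand, the nearer one ending 75 and 112 bases before the start. In Bst2 a pair of overlapping matches ended 114 bases before the start, and Isg15 had 3 overlapping matches that ended 56 bases before it. The 2 matches of Ifitm3 lay just past its start and are not shown. No exact match was present in the windows of Irf7, Irf9 or Oasl2, which says only that these letters are not in those windows.

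None of the 9 genes passed the test for a difference between the diets, and the clearest pattern in them was a wide spread among the control libraries. By edgeR's quasi-likelihood test with Benjamini-Hochberg adjustment over all genes, 0 of 9 passed an adjusted p of 0.05, where 7.57% of all genes tested did (1.87% higher and 5.7% lower in cuprizone). DESeq2 and limma-voom also called 0, and 2 of the 9, Bst2 and Irf9, had an unadjusted p under 0.05, both higher, where 10.5% of all genes were higher at that level. Fold changes were positive for 5 genes and negative for 4 (52.6% of all genes were positive), with a median log2 fold change of 0.25 against 0.02 over all genes tested. For 3 genes, Irf9, Bst2 and Ifitm3, every cuprizone library lay above every control library, which held for 12.6% of all genes. Levels below are CPM (counts scaled to library sizes of equal total, with TMM scaling), and library totals ran from 18549360 to 22381307 counts.

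**Figure D1:**
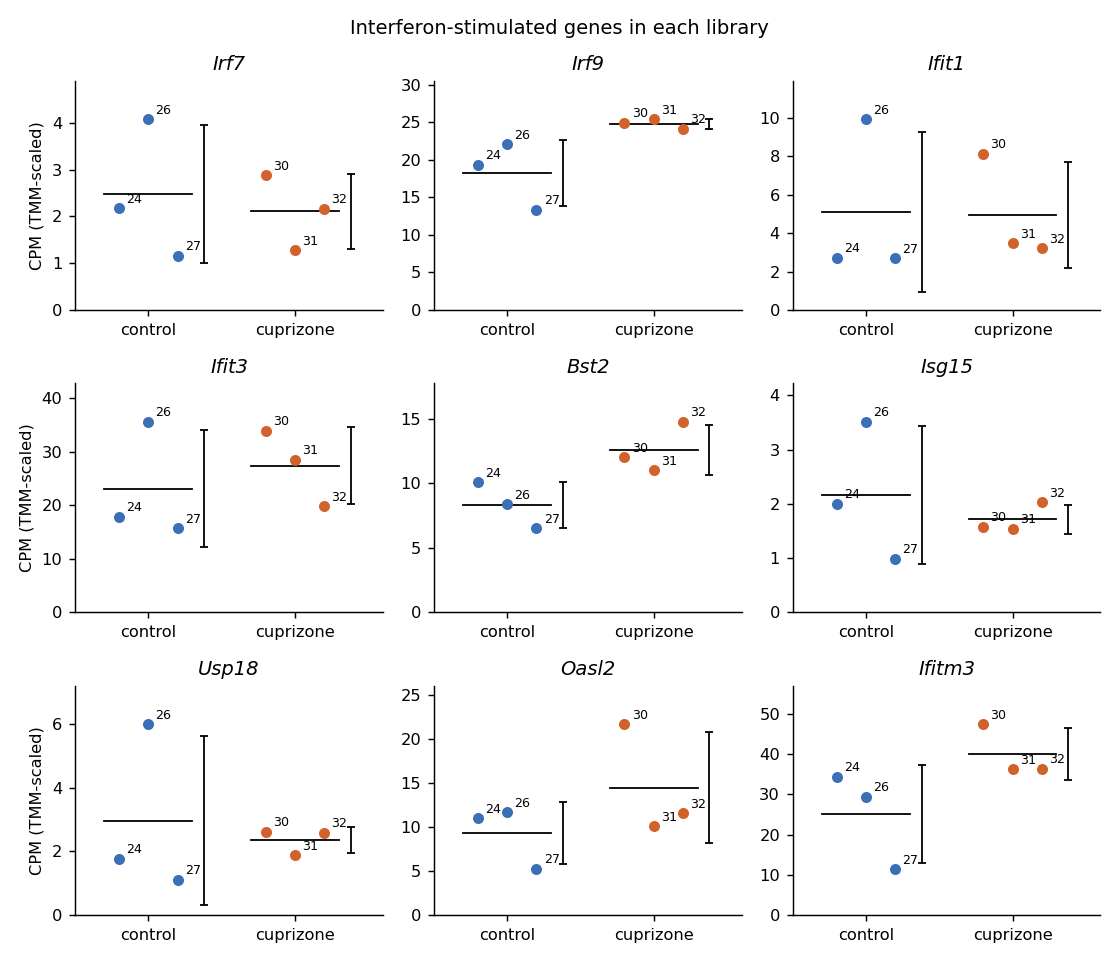
Level of each gene in each library, in CPM on a linear axis from 0. Points are libraries with their replicate numbers, horizontal lines are group means and the bars beside them are ± 1 SD (n = 3). Control replicate 27 is the lowest control for all 9 genes and control replicate 26 the highest for 7.

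The signalling factors come first. Irf9, the DNA-binding partner of STAT2 (ENSMUSG00000002325, chromosome 14, 55603571 to 55610030 in GRCm38), stood at 19.3, 22.0 and 13.3 CPM in the control libraries, listed here and below as replicates 24, 26 and 27. It stood at 24.9, 25.4 and 24.1 CPM in the cuprizone libraries, listed as replicates 30, 31 and 32. The cuprizone libraries lay close together and all above the controls. Its log2 fold change was 0.44 ± 0.19 (SE), with a 95% interval from 0.01 to 0.88, an unadjusted p of 0.0478 and an adjusted p of 0.21 by edgeR. It fell to 0.26 without control replicate 27, the lowest library. Irf7, the amplifier (ENSMUSG00000025498, chromosome 7, 141262706 to 141266481), was at 2.18, 4.08 and 1.16 CPM in the controls and at 2.89, 1.28 and 2.17 CPM in cuprizone. The groups overlapped over nearly their whole range, and the control range held every cuprizone value. The log2 fold change of Irf7 was -0.23 ± 0.49, with an interval from -1.39 to 0.93 (adjusted p = 0.82), so that neither a fall nor a rise of about that size is resolved with these libraries.

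The IFIT proteins bind viral RNA and are among the strongest targets of type I interferon in many cells. Ifit1 (ENSMUSG00000034459, chromosome 19, 34640871 to 34650009) was at 2.71, 9.92 and 2.68 CPM in the controls and at 8.12, 3.46 and 3.21 CPM in cuprizone. A single library of each group, control replicate 26 and cuprizone replicate 30, stood above the rest of that group (29% of all genes had replicate 30 as the highest cuprizone library, and 16.3% varied more than 2-fold among those libraries). The means, 5.10 ± 4.17 CPM and 4.93 ± 2.76 CPM (SD, n = 3 per group), were nearly equal, with a log2 fold change of -0.05 ± 0.60 (adjusted p = 0.97). Ifit3 (ENSMUSG00000074896, chromosome 19, 34583531 to 34588731) was at 17.9, 35.6 and 15.8 CPM in the controls and at 33.9, 28.6 and 19.8 CPM in cuprizone. It too was highest in control replicate 26 and cuprizone replicate 30, and its log2 fold change of 0.25 ± 0.34 did not pass (adjusted p = 0.71). That value was 0.71 without control replicate 26, 0.44 without cuprizone replicate 32, 0.11 and 0.04 without control replicates 24 and 27, and 0.07 without cuprizone replicate 30. Ifit3 has a near-identical neighbour, Ifit3b. Of the 50-base stretches in Ifit3 transcripts, 51.2% also occur in those of Ifit3b, so how their reads were divided is uncertain. Ifit3b was at 13.6, 19.5 and 13.2 CPM in the controls and at 22.5, 23.4 and 14.2 CPM in cuprizone, again overlapping.

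Isg15 and Usp18 act on the same modification, one as the tag and the other as its remover. Isg15 (ENSMUSG00000035692, chromosome 4, 156199424 to 156200818) was at 2.004, 3.51 and 0.990 CPM in the controls and at 1.58, 1.54 and 2.03 CPM in cuprizone. Usp18 (ENSMUSG00000030107, chromosome 6, 121245906 to 121270917) was at 1.77, 6.01 and 1.11 CPM in the controls and at 2.61, 1.88 and 2.59 CPM in cuprizone. For both genes the 3 cuprizone libraries fell between the highest and the lowest control. Their log2 fold changes of -0.34 ± 0.44 and -0.33 ± 0.59 did not pass (adjusted p = 0.69 and 0.78 by edgeR), and both turned positive without control replicate 26, at 0.19 and 0.72. These are shallow genes. Isg15 had 17 to 62 reads in a library and Usp18 had 19 to 106. In control replicate 27 the exact Poisson 95% interval of Isg15, which covers counting error only, ran from 0.577 to 1.59 CPM. In control replicate 26 the interval of Isg15 started at 2.69 CPM. That of Usp18 ended at 1.73 CPM in control replicate 27 and started at 4.92 CPM in control replicate 26. Such intervals of control replicates 26 and 27 lay apart for 8 genes of the set, all but Bst2. How often that held over all genes was not computed. Over the whole table the counts of these 2 libraries differed by 24.4 chi-square units per degree of freedom, well beyond counting error. Intervals that lie apart are therefore not particular to these genes.

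The restriction factors act on virus particles or their RNA. Bst2 encodes tetherin, which holds budding virus at the cell surface (ENSMUSG00000046718, chromosome 8, 71534255 to 71537456). It was at 10.1, 8.39 and 6.52 CPM in the controls and at 12.0, 11.0 and 14.8 CPM in cuprizone, with no overlap between the groups. Its log2 fold change of 0.59 ± 0.20 had a 95% interval from 0.12 to 1.07 and the lowest p of the 9 genes, 0.0212 before and 0.14 after adjustment. Ifitm3, a membrane protein that blocks virus entry (ENSMUSG00000025492, chromosome 7, 141009586 to 141010770), was at 34.4, 29.4 and 11.4 CPM in the controls and at 47.5, 36.3 and 36.4 CPM in cuprizone. The groups did not overlap, although control replicate 24 came within 2 CPM of the nearest cuprizone library, and control replicate 27 lay far below the rest. The log2 fold change was 0.67 ± 0.37 (adjusted p = 0.32), and it was 0.32 without control replicate 27 and 0.99 without control replicate 24. Oasl2, an oligoadenylate synthetase-like protein (ENSMUSG00000029561, chromosome 5, 114896936 to 114912234), was at 11.0, 11.7 and 5.24 CPM in the controls and at 21.7, 10.1 and 11.6 CPM in cuprizone. A high cuprizone library, replicate 30, and a low control library, replicate 27, stood out. The log2 fold change of 0.64 ± 0.39 (adjusted p = 0.37) was 0.22 without the former and 0.35 without the latter.

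Compared per length, as CPM per kilobase of exon (RPKM), Ifitm3 had the highest level of the 9, at 37.0 ± 17.8 in control and 59.1 ± 9.50 in cuprizone (SD, n = 3 per group). Ifit3 followed with 13.2 ± 6.26 and 15.7 ± 4.09, and Bst2 with 9.22 ± 1.97 and 13.9 ± 2.17. Ifit3 and Bst2 did not differ beyond their spread. Irf9 came next, at 3.39 ± 0.827 and 4.61 ± 0.122, then Isg15 at 2.87 ± 1.68 and 2.27 ± 0.360. Ifit1 had a mean over the 6 libraries of 1.89 RPKM and Oasl2 one of 1.87, and these neighbours were not separated. This order uses the length of all exons of a gene together. With the longest transcript as the length, Oasl2 had a mean of 3.81 RPKM and came above Isg15, at 2.57 RPKM. Usp18 and Irf7 were lowest, with means over the 6 libraries of 0.954 and 0.608 RPKM. The exons of Irf7 together form 1 block of 3776 bases that covers the whole gene, so its value per length may be too low. With the longest transcript as the length it had 0.708 RPKM and was still the lowest.

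**Figure D2:**
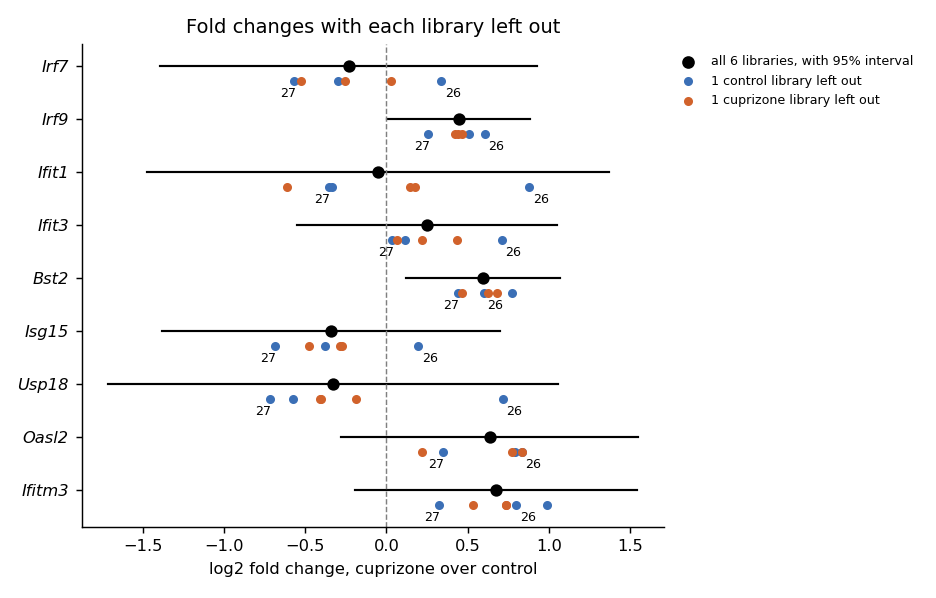
Log2 fold change of each gene, cuprizone over control, with its 95% interval from edgeR (black), and below it the value when each library in turn is left out (blue for a control, orange for a cuprizone library; 26 and 27 mark those control replicates). Without control replicate 26 all 9 values are above 0, and Irf7, Ifit1, Isg15 and Usp18 cross from negative to positive.

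The sign of 4 of the 9 genes turned when control replicate 26 was left out: all 9 then had a positive log2 fold change, with a median of 0.71. Irf7 also turned positive without cuprizone replicate 31 (0.03), and Ifit1 without cuprizone replicate 31 (0.15) or 32 (0.18). Without cuprizone replicate 30 the median was 0.07, and without control replicate 27 the median was 0.04 with 5 positive. The median was 0.44 without cuprizone replicate 32, the library least like its group: its counts differed from those of replicates 30 and 31 by 85.1 and 101 chi-square units per degree of freedom, against 26.6 for replicates 30 and 31. None of the 9 genes passed in any of these fits. The lowest adjusted p that any setting gave a member was that of Bst2 with DESeq2, 0.0807.

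The highest control library was more than 2-fold above the lowest for 7 of the 9 genes, which held for 12.2% of all genes tested. The median ratio of highest to lowest control was 3.02 for the 9 genes and 1.26 for all genes tested, or 1.28 for the 8229 genes tested within the same range of mean CPM. That range, from 1.94 to 32.6 CPM, is wide and does not match each gene for depth. The control ratio was widest for Usp18 at 5.43, followed by Ifit1 at 3.70, Isg15 at 3.55 and Irf7 at 3.50. These were also the genes of lowest mean CPM among the 9, from 1.94 (Isg15) to 5.02 (Ifit1), where counting error is larger. The ratio was narrowest for Bst2 at 1.55. Among the cuprizone libraries the median ratio of highest to lowest was 1.39 for the 9 genes and 1.38 for all genes.

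**Figure D3:**
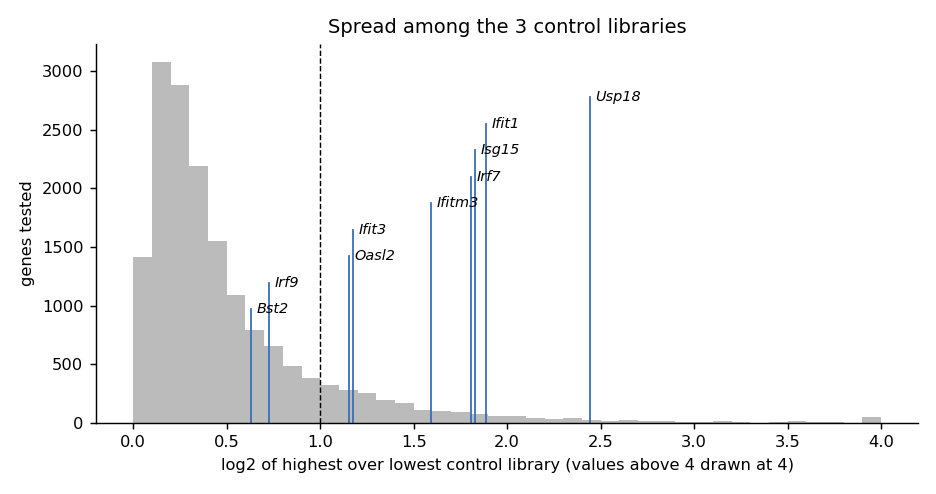
Histogram of the log2 ratio of the highest to the lowest control library over the genes tested that had reads in all 3 controls (grey), with the 9 genes as blue lines whose heights only separate the names. The dashed line marks a 2-fold ratio, and 7 of the 9 genes lie to its right.

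The spread had an order, which was read from these values and not set beforehand. Several of the 9 genes vary together, as given below, so they are not separate cases. Control replicate 27 was the lowest control for 9 of 9 genes, where it was lowest for 26.6% of all genes, and control replicate 26 was the highest for 7 of 9, against 35.5%. Both held together for 7 of 9, against 12.4% of all genes. The same order appeared in Rsad2, an antiviral enzyme named after its values were seen, at 1.83, 5.95 and 1.28 CPM in the controls. Of 42 other interferon-stimulated genes tested, replicate 27 was lowest in 30 and replicate 26 highest in 20, with both in 15, and 18 had a control ratio above 2-fold.

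Across the 6 libraries the 9 genes did not move as one block. Usp18 followed Isg15 with a Pearson r of 0.92 and Irf7 with 0.89, and Ifit1 followed Ifit3 with 0.90. Ifitm3 followed Irf9 with 0.93, Oasl2 with 0.91 and Bst2 with 0.84, while Bst2 and Ifit1 had an r of 0.04. These are descriptions over 6 libraries that share 2 groups. The 5 genes outside the set whose log2 CPM had the highest r with the mean profile of the 9 were Tab3 (r = 0.98), Tgs1 (0.96), Rpusd2 (0.96), C9orf72 (0.95) and Ube4bos1 (0.95), each with an adjusted p above 0.6 between the diets. An r ignores the size of a change, and Tgs1 ran only from 13.8 to 17.4 CPM. Genes under a mean of 5 CPM were not searched. Irf7, Isg15 and Usp18 themselves lie under that mean, as does Rsad2 (2.84 CPM), so interferon genes of similar profile may be missed.

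The genes upstream of the 9 were then read. Of 21 interferon genes 17 were analysed, and 16 had no read in any library. A count of 0 allows a level of up to 0.128 to 0.177 CPM in these libraries, for counting error only. The exception was Ifng, the type II interferon, with 1 read in cuprizone replicate 30. Both chains of the type I receptor were well above that floor. Ifnar1 was at 55.3, 64.0 and 56.6 CPM in control and at 55.1, 56.7 and 48.4 CPM in cuprizone, while Ifnar2 had a log2 fold change of 0.24 ± 0.11 (adjusted p = 0.24). Ifngr1 and Ifngr2, which receive interferon gamma, had 0.49 ± 0.18 and 0.44 ± 0.18, and Il10rb, a chain shared by the interferon lambda and interleukin 10 receptors, had 0.77 ± 0.25. None of the 5 receptor genes tested passed with edgeR, although 4 lay higher in every cuprizone library (12.6% of all genes did) and 3 were higher at an unadjusted p under 0.05 (10.5% of all genes). With DESeq2 one of them, Il10rb, was called higher (adjusted p = 0.0467).

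The kinases Jak1, Jak2 and Tyk2 and the factor Stat2 were read next, and none passed. Jak1 averaged 114 ± 4.68 CPM over the controls and 135 ± 8.16 CPM over the cuprizone libraries, without overlap, a log2 fold change of 0.25 ± 0.11 (adjusted p = 0.22), and Tyk2 had 0.16 ± 0.17. Stat2 was at 16.2, 21.0 and 14.2 CPM in the controls and at 18.0, 14.1 and 15.2 CPM in cuprizone. Its highest control was replicate 26 and its lowest replicate 27, the groups overlapped, and its log2 fold change was -0.12 ± 0.18. Jak2, which serves the interferon gamma receptor, had -0.03 ± 0.18. By edgeR 0 of these 4 genes reached even an unadjusted p under 0.05, and neither DESeq2 nor limma-voom called any. The ratio of highest to lowest control had a median of 1.34 over the 4 genes.

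Among the other interferon regulatory factors, 0 of 5 tested passed with edgeR and 1 had an unadjusted p under 0.05. Irf8, a factor of myeloid cells, was at 54.3, 24.6 and 21.6 CPM in control and at 37.0, 53.5 and 104 CPM in cuprizone, an order unlike that of the 9 genes. Irf5 and Irf2 had log2 fold changes of 0.53 ± 0.31 and 0.19 ± 0.14. Of 7 negative regulators tested none passed with edgeR, and 3 had an unadjusted p under 0.05. Over all 16569 genes tested, 3861 had such a p in either direction. Ptpn11, a phosphatase of many receptor pathways, had a log2 fold change of -0.71 ± 0.19 (adjusted p = 0.0698, and 0.00355 with DESeq2). By edgeR it passed without cuprizone replicate 31 (adjusted p = 0.0368). Pias1, a SUMO ligase, had 0.31 ± 0.09 (adjusted p = 0.11, and 0.0245 with DESeq2), and Ubr2 had -0.09 ± 0.16.

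Of 15 sensors of nucleic acids and their adaptors 2 rose, each without overlap between the groups, beside 1.87% of all genes, and the list had a median log2 fold change of 0.37. Tlr9, an endosomal receptor for DNA, went from 6.11 ± 1.54 CPM to 13.8 ± 2.39 CPM (1.18 ± 0.23, adjusted p = 0.0234 by edgeR). Leaving out control replicate 26 or 27, or cuprizone replicate 30 or 31, ended that call, with adjusted p values from 0.0502 to 0.10. Ikbke, a kinase that activates IRF3 and IRF7, went from 1.37 ± 0.258 CPM to 3.55 ± 0.708 CPM (1.36 ± 0.26, adjusted p = 0.024). Its call ended when any control or cuprizone replicate 31 was left out, with adjusted p values from 0.0536 to 0.0915. Tlr3, Mavs and Ticam1 had log2 fold changes of 0.27, 0.02 and 0.10 and did not pass.

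Of the 4 enzymes that attach ISG15, 1 rose, beside 1.87% of all genes. Ube2l6, the conjugating enzyme of ISG15, was at 3.95, 4.19 and 3.32 CPM in control and at 6.36, 7.27 and 6.98 CPM in cuprizone. The groups lay clearly apart, with a log2 fold change of 0.85 ± 0.17 (adjusted p = 0.0289 by edgeR), although the adjusted p was 0.0511 to 0.119 when any one library was left out. The ligases Trim25 and Herc6 had log2 fold changes of 0.02 and 0.33 and did not pass. Isg15, the protein it conjugates, did not pass in the same libraries.

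Of 42 other interferon-stimulated genes tested 3 rose and none fell, with a median log2 fold change of 0.47 and positive values for 35, beside 1.87% of all genes called higher, a median of 0.02 and 52.6% positive. Lgals3bp, a secreted glycoprotein, went from 87.0 ± 10.2 CPM to 150 ± 9.07 CPM (0.78 ± 0.13, adjusted p = 0.0135 by edgeR). Shisa5, a membrane protein linked to cell death, went from 70.9 ± 5.34 CPM to 105 ± 5.11 CPM (0.57 ± 0.11, adjusted p = 0.0237 by edgeR), and Tor3a, an ATPase of the endoplasmic reticulum, from 31.4 ± 0.127 CPM to 53.4 ± 8.62 CPM (0.77 ± 0.14, adjusted p = 0.0186). All 3 had tight controls, unlike the 7 of the 9 genes whose highest control was more than 2-fold above the lowest. When a control library was left out, the adjusted p of Lgals3bp reached 0.0695 (without control replicate 26 or 27), that of Shisa5 0.139 and that of Tor3a 0.0911. The calls of Shisa5 and Tor3a ended without any one control and without cuprizone replicate 30, and that of Tor3a also without cuprizone replicate 31. Xaf1, named after its values were seen, went the other way, at 88.5, 12.9 and 71.8 CPM in control and 18.6, 30.6 and 2.83 CPM in cuprizone, and did not pass (-1.73 ± 0.89, adjusted p = 0.29).

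Genes known mainly as targets of interferon gamma had a median log2 fold change of 0.76, and 2 of 16 tested rose, beside 1.87% of all genes. Ido1, which degrades tryptophan, went from 0.987 ± 0.275 CPM to 3.20 ± 1.40 CPM (1.69 ± 0.39, adjusted p = 0.0455), and Tap1, a peptide transporter of antigen presentation, from 9.51 ± 1.87 CPM to 15.8 ± 1.15 CPM (0.73 ± 0.17, adjusted p = 0.0492 by edgeR). Both stood near the threshold. Tap1 missed it with RLE scaling (0.0512), with no filter on low counts (0.0517) and without any one library, and Ido1 with limma-voom (0.0648) and without any one library but cuprizone replicate 31. Irgm1, Psmb8 and Gbp2 had log2 fold changes of 0.79, 1.22 and 0.92, did not overlap between the groups and did not pass with edgeR (adjusted p = 0.0838, 0.0943 and 0.15). DESeq2 called Irgm1 (adjusted p = 0.018) and Psmb8 (adjusted p = 0.0114) higher, and by edgeR Irgm1 passed without cuprizone replicate 32 (0.0267) and Psmb8 without control replicate 24 (0.0473). A count over all the pathway lists gave 8 genes higher and none lower, beside 310 higher and 945 lower over all 16569 genes tested. The 8 dropped to 0 without control replicate 26 or 27 and to 4 without control replicate 24. They dropped to 2 without cuprizone replicate 30 and to 3 (with 1 lower) without cuprizone replicate 31. With DESeq2 the count was 18 higher and 1 lower, but that method also called more of all genes, 862 higher and 1400 lower.

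**Figure D4:**
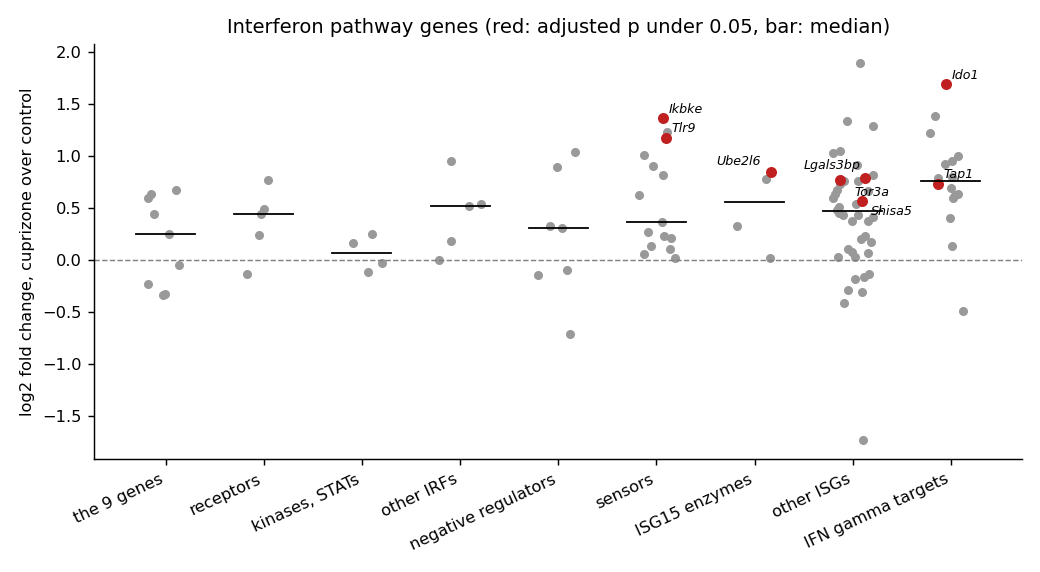
Log2 fold change, cuprizone over control, of the genes read in each interferon list. Points are genes, red where the adjusted p was under 0.05 by edgeR, and bars are list medians. None of the 9 genes is red, and the 8 red genes lie in the sensor, ISG15 enzyme, other interferon-stimulated gene and interferon gamma lists.

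Markers of several cell types were read beside these values. In pulled-down RNA from a whole tissue, fewer cells of a type and less RNA per cell cannot be told apart. No library of unselected RNA was among the samples, so enrichment for tagged cells was not tested. Some markers of other cell types were abundant. The astrocyte marker Slc1a2 averaged 9992 ± 987 CPM in control. In cuprizone the astrocyte marker Gfap averaged 9483 ± 2349 CPM, above the myelin gene Mbp at 5574 ± 2329 CPM. Whether such RNA came from tagged cells was not tested, so the levels of the 9 genes cannot be assigned to a cell type. All 10 markers of myelinating oligodendrocytes fell and none was at 0. Mbp, a main myelin protein, went from 34363 ± 9088 CPM to 5574 ± 2329 CPM, and Olig1, which drives the Cre, from 1438 ± 184 CPM to 661 ± 167 CPM (adjusted p = 0.0334 by edgeR). Olig1 is in the list of progenitor markers, which fell less. Of 9 tested in that list, 8 had negative fold changes and 2, Olig1 and Sox10, were called lower. Its median log2 fold change was -0.32, against -3.08 for the markers of myelinating oligodendrocytes. Over all marker lists 12 genes were called lower, and 9 to 14 when a library was left out. None of the 16 microglia markers was at 0, and their summed level ran from 1506 to 3107 CPM in control and from 2391 to 5873 CPM in cuprizone. None of them passed with edgeR, 4 had an unadjusted p under 0.05 (3861 of all 16569 genes did, in either direction), and 14 had positive fold changes. C1qa was at 506, 246 and 216 CPM in control and at 366, 495 and 957 CPM in cuprizone. The order of the libraries was not that of the 9 genes: replicate 26 was the highest control for 0 of 16 microglia markers, and cuprizone replicate 30 had the lowest summed level of its group. Replicate 27 was the lowest control for 13 of 16. The part of these cells in the levels of the 9 genes was not tested.

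**Figure D5:**
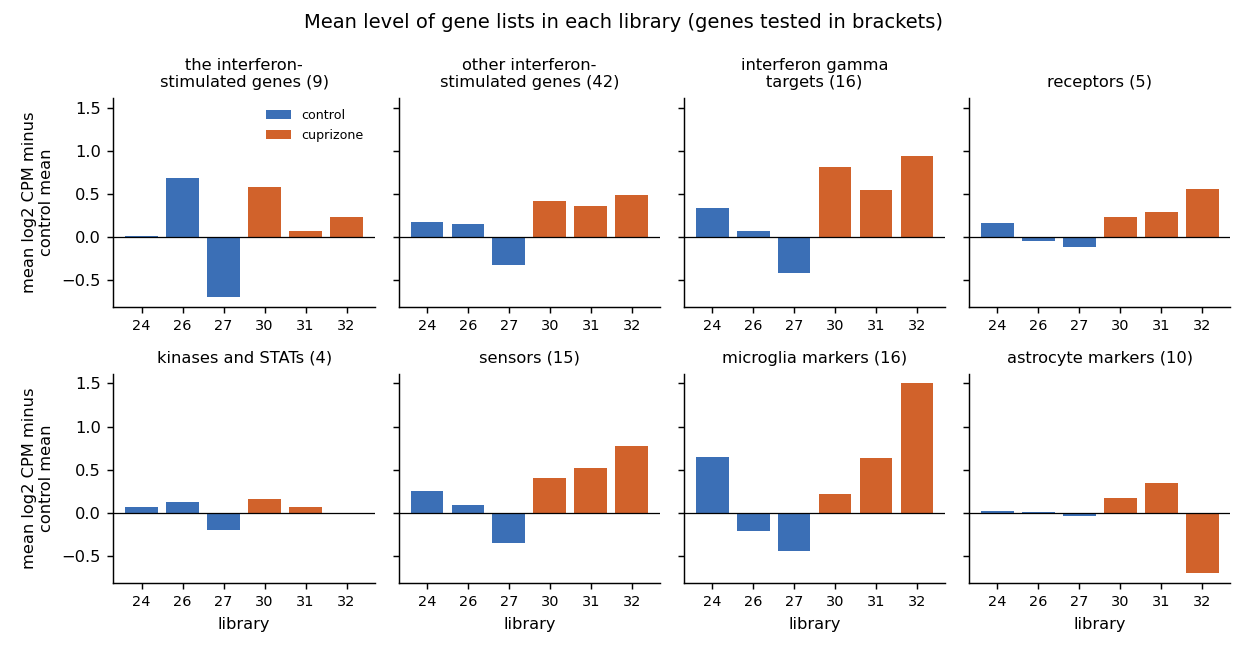
Mean log2 CPM of each list in each library, relative to the mean of the 3 controls, with the number of genes tested in brackets (blue bars control, orange bars cuprizone). The 9 genes run from -0.70 in control replicate 27 to 0.68 in control replicate 26, a range that holds all 3 cuprizone libraries, while microglia markers are highest in cuprizone replicate 32 at 1.50.

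Relative to the control mean, the mean log2 level of the 9 genes was 0.02, 0.68 and -0.70 in the controls and 0.59, 0.07 and 0.23 in the cuprizone libraries. The microglia markers were at 0.65, -0.21 and -0.43 and at 0.22, 0.63 and 1.50 in the same order. The mean of the astrocyte markers differed little among the controls, from -0.04 to 0.02, and ran from -0.69 to 0.34 in cuprizone. Only 1 of the 10, Gfap, ranged more than 2-fold among the controls, at 8460, 5486 and 4039 CPM. Summed, the astrocyte markers stood at 25963, 23153 and 23179 CPM in control and at 26250, 31139 and 16177 CPM in cuprizone. Markers of myelinating oligodendrocytes summed to 83131, 61389 and 74959 CPM in control and to 8161, 15030 and 8034 CPM in cuprizone. Of 10 T and NK cell markers 2 were deep enough to test. Cd3d was at 0 in all controls and in cuprizone replicate 30, and Cd4, which microglia and macrophages can also carry, rose (1.58 ± 0.24, adjusted p = 0.0107 by edgeR), a call that ended without control replicate 26. The summed level of the list ran from 8.39 to 13.4 CPM in control and from 22.9 to 44.6 CPM in cuprizone, most of it Cd4. The other 9 markers summed to 1.18, 1.08 and 2.56 CPM in control and to 0.857, 2.01 and 10.7 CPM in cuprizone, so that without Cd4 the groups overlapped and cuprizone replicate 32 stood alone. Endothelial markers, 9 of 10 with positive fold changes and a median of 1.10, summed to 27.4 to 29.9 CPM in control and to 54.8, 27.8 and 87.0 CPM in cuprizone. None passed with edgeR, 3 had an unadjusted p under 0.05 (3861 of all 16569 genes did, in either direction) and none was at 0. Cuprizone replicate 30, the highest cuprizone library for the summed CPM of the 9 genes, was above every control in summed endothelial markers. So was replicate 32, which had the highest endothelial sum but the lowest summed CPM of the 9 genes in its group. Replicate 31 was not. Neuronal markers summed to 1985 to 3066 CPM in control and 2321 to 4279 CPM in cuprizone, with none called. The part of these cell types in the levels of the 9 genes was not tested. On this log2 scale the 9 genes were highest in control replicate 26, and the groups overlapped. Their summed CPM, which the abundant members dominate, was highest in cuprizone replicate 30 instead, at 155 CPM against 131 CPM in control replicate 26, and also overlapped, since the other cuprizone libraries stood at 119 and 117 CPM.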

How the data were processed

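The deposited table holds raw counts per Ensembl gene for 6 libraries, made by the authors and used here as deposited. Per the labels' protocols, frozen corpus callosum went through HA pull-down, and a Kapa kit turned the RNA into libraries. The submitters' processing notes name bcl2fastq 2.17 and mm10. How reads were aligned and counted, with which annotation and strand setting, is not stated there, which leaves genes with overlapping neighbours (Irf7, Irf9 and Usp18, by 1.19% to 4.44% of their exonic bases) and close paralogs less certain.

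Symbols, coordinates (1-based, GRCm38, the same assembly as mm10) and exon lengths came from GENCODE M21, which matched 37607 of 39017 identifiers. Counts were fitted in R 4.3.3 with edgeR 4.0.16 on all 6 libraries (filterByExpr with minimum count 10 and minimum total 15, TMM scaling, robust glmQLFit, glmQLFTest, 2-sided, threshold 0.05). The SE was derived from the log2 fold change and F, and intervals use the fit's t distribution. Alternatives were RLE and upper-quartile scaling, no filter, CPM over 1 in at least 3 samples, DESeq2 1.42.0, limma-voom (limma 3.58.1) and each library left out. On counts simulated for this comparison and refiltered to 16400 genes, edgeR recovered 60% of the genes raised by 1 on the log2 scale. It recovered 52% of those lowered by 1. Of its calls on these counts 8.18% were false, more than the threshold of 0.05 aims at. Recovery for genes with controls as widely spread as those of the interferon-stimulated genes followed here was not tested. Exact permutation of 3 against 3 libraries cannot go below p = 0.1 and was not used.

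The members and lists were chosen with earlier results of these data known. Genes named are the 9 members, all receptors, kinases and STATs tested (1 gene of this list is not reported here), up to 4 called genes of each other list or the 3 of highest mean CPM where fewer than 3 passed, and the 5 nearest profiles (log2 CPM with prior count 2, mean CPM at least 5); Ifit3b, Rsad2, Xaf1, Ifng and Cd3d were added after their values were seen. Mb21d1 was read as Cgas.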

Additional observations from a re-analysis of the deposited data

How the results depend on the processing

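No paired analysis was possible because the control and cuprizone libraries share no replicate number. The count of members called stayed at 0 in both directions in all 12 alternatives. The counts over all genes were 310 higher and 945 lower; they were 862 and 1400 with DESeq2, and with 1 library left out ran from 65 to 464 and from 474 to 963. Pathway genes called higher (8) numbered 18 with DESeq2 and 0 to 7 with 1 library left out, and those lower (0) numbered 1 and 0 to 1. Marker genes called higher (1) numbered 4 with DESeq2 and 0 to 2 with 1 library left out. Of the alternative values for the 9 members 98 kept their sign and 10 reversed. Ifit1 reversed to 0.0128 with upper-quartile scaling and to 0.10 with limma-voom, and Usp18 to 0.0163 with limma-voom; Jak2 reversed to 0.0278 with upper-quartile scaling. The cause was not tested. With each library left out in turn, log2 fold changes ran from -0.57 to 0.34 for Irf7, -0.61 to 0.88 for Ifit1, -0.69 to 0.19 for Isg15 and -0.72 to 0.72 for Usp18. The same leave-one-out range was -0.124 to 0.1401 for Jak2, -0.239 to 0.0635 for Stat2, -0.2696 to 0.0399 for Ubr2, -0.0516 to 0.0928 for Mavs and -0.167 to 0.2448 for Trim25, each crossing 0. The pathway genes' own lost calls stand beside them above, and over all named genes outside the 9 a call was lost 39 times and gained 8 times. Depth limits Irf7, Isg15 and Usp18 most, with as few as 20, 17 and 19 reads in a library.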
